A study of Mus musculus with 18 samples.

Results

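Transcripts of 10 glycolytic enzymes were followed in the quadriceps muscle and the white fat of obese male mice of the inbred strain DBA/2J. The members were chosen by gene symbol (Hk2, Gpi1, Pfkm, Aldoa, Gapdh, Pgk1, Pgam2, Eno3, Pkm and Ldha), and all 10 were found among the 33641 gene symbols of the table and passed the filter on low values in both tissues. The mice were wild type and about 20 weeks old when dosing began, had eaten a high-fat diet for 12 weeks by then, and stayed on it for another 12 weeks of injections into the peritoneum. The vehicle group had vehicle every day, the weekly group prednisone at 1 mg/kg once a week, and the daily group the same dose every day, with 3 mice in each. Prednisone is a synthetic glucocorticoid that acts through the glucocorticoid receptor. Both tissues were taken from each of the 9 mice 24 hours after the last injection, which gave 18 RNA-seq libraries. All animals, controls included, were obese and received injections, so no lean or uninjected mouse is part of the comparison.

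Glycolysis splits glucose into pyruvate in the cytosol and yields ATP without oxygen, and lactate dehydrogenase turns the pyruvate into lactate. Fast muscle fibres depend on it during short bursts of work and express dedicated muscle isoforms of several steps, while adipocytes use it mainly to supply glycerol phosphate and acetyl groups for fat storage. Hypoxia-inducible factors bind a short core, ACGTG, near many genes of the pathway, MEF2 factors bind an A/T-rich site near muscle genes, and the glucocorticoid receptor binds paired copies of a short element whose single copy reads AGAACA.

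Values are TPM, transcript abundances per transcript length that add up to the same total in each library, here summed per gene symbol. Read counts cannot be taken from them, so the depth is unknown and error is the spread between mice. A level of 1 TPM was reached by 11781 to 12200 genes per library in muscle and by 13413 to 14076 in fat. The tissue labels matched their markers: Ckm, the muscle creatine kinase, stood at 15453 to 19127 TPM in muscle against 13.2 to 176 in adipose tissue, and Adipoq, the adipocyte hormone adiponectin, at 40.6 to 120 against 2877 to 3757. In muscle, the third library of a group held the middle value for 21 of 30 combinations of member and group (70%), against 13 of 30 (43.3%) in adipose tissue. Whether these libraries come from separate animals was not tested beyond the labels, and the main results are also given without them. In adipose tissue the libraries weekly 2, weekly 3 and daily 2 stood apart: each of 18 myofibre markers was higher in these 3 than in the other 6, with summed levels of 1373 to 2111 TPM against 317 to 466.

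In the GENCODE M21 annotation (GRCm38) the genes on the minus strand are Hk2 (chr6:82725025-82774454), Gapdh (chr6:125161715-125166467), Gpi1 (chr7:34201330-34230336), Aldoa (chr7:126795234-126800751, with a second gene of that symbol at chr7:126800790-126809108) and Pgam2 (chr11:5801640-5803733). Those on the plus strand are Ldha (chr7:46841475-46855627), Pkm (chr9:59656368-59679375), Eno3 (chr11:70657202-70662513), Pfkm (chr15:98092589-98132451) and Pgk1 (chrX:106187100-106203699).

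Several members are read through more than 1 transcript, and the sequences below mark where those transcripts differ. Pkm encodes pyruvate kinase, which makes pyruvate and ATP in the last step of glycolysis. Its transcripts Pkm-202 and Pkm-201 differ in a choice between neighbouring exons of 167 bases each, which give the M1 and the M2 enzyme. The exons lie on the plus strand at chr9:59675029-59675195 and chr9:59675568-59675734 (GRCm38, exonic, coding), and capitals mark the 64 positions at which they differ (identity 61.7%).
Pkm-202 exon: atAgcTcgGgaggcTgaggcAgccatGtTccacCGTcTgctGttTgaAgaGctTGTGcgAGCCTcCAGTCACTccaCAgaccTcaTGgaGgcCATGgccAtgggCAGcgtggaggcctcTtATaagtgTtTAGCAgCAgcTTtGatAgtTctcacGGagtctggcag
Pkm-201 exon: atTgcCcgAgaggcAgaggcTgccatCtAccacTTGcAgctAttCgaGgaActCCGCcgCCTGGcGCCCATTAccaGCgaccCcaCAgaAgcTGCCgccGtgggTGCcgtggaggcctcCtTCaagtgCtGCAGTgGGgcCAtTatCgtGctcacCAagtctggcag

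Aldoa and Pfkm are read from alternative start sites. Aldoa encodes aldolase A, which splits fructose 1,6-bisphosphate, and Pfkm the muscle phosphofructokinase, which commits sugar to the pathway. The 250 bases before the start of Aldoa-203 (chr7:126800448-126800697, minus strand), of Aldoa-201 (chr7:126799255-126799504, minus strand), of Pfkm-202 (chr15:98092339-98092588, plus strand) and of Pfkm-201 (chr15:98108221-98108470, plus strand) are shown, with those of Pgam2 (chr11:5803797-5804046, minus strand), whose level differed most between the tissues. They come from RefSeq (GRCm38.p6), whose reference mouse is not DBA/2J. The windows end at RefSeq start sites, which lie 5 bases from the GENCODE start of Pfkm-201 and 63 bases from that of Pgam2-201. Capitals mark the hypoxia core ACGTG on either strand. They also mark the glucocorticoid element AGAACA and the MEF2 site. The palindrome CACGTG holds the hypoxia core on each strand.
Aldoa-203 upstream: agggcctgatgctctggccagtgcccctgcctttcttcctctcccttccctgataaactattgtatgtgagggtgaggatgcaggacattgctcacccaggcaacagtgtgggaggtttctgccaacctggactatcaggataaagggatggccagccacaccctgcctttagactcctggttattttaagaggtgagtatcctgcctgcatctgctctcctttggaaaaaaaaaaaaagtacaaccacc
Aldoa-201 upstream: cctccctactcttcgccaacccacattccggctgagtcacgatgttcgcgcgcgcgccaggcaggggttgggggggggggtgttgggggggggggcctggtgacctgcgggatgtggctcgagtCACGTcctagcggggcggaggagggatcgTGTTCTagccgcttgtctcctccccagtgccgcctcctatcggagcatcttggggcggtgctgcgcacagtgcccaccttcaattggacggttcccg
Pfkm-202 upstream: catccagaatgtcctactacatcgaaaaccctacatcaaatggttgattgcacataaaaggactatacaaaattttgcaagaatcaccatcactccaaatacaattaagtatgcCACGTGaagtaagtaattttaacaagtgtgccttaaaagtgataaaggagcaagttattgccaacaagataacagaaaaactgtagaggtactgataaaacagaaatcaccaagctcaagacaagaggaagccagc
Pfkm-201 upstream: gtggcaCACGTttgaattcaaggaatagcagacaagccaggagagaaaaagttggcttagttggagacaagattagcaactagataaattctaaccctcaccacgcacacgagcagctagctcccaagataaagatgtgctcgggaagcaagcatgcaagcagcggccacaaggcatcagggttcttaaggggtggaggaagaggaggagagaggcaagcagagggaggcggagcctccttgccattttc
Pgam2 upstream: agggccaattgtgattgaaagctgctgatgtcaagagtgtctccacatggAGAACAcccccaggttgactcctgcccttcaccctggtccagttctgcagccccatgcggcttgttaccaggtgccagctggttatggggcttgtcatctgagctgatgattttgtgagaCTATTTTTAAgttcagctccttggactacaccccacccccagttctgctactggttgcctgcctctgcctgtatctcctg

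Over the 17 RefSeq windows of the 10 members, some of which overlap, ACGTG was found in 8 windows of 6 genes (Aldoa, Hk2, Ldha, Pfkm, Pgk1 and Pkm), and 16.6% of all 32851 windows held it. AGAACA was found in 5 windows of 4 genes (Aldoa, Gapdh, Pfkm and Pgam2) against 16.1% of all windows. The MEF2 site was found in the Pgam2 window alone, against 2.92% of all windows, and TATAAA in 0 of the 17 against 12.4%. The glucocorticoid matches are to its single copy. An exact paired form was found in 0 of the 17 windows and in 3 of all 32851, so it is too rare for its absence here to be informative. All these matches describe letters in a window and no binding was measured.

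The members were abundant in muscle and ordered differently in the tissues. In muscle of vehicle mice Aldoa led with 15273 ± 880 TPM (SD, n = 3), followed by Eno3 (3995 ± 143), Gapdh (3436 ± 295), Pgam2 (3132 ± 268), Pkm (1916 ± 50.4), Ldha (1804 ± 125), Pfkm (1182 ± 16.9), Pgk1 (493 ± 5.31), Gpi1 (471 ± 31.1) and Hk2 (65.3 ± 3.23). The libraries of neighbours in this order overlapped for Gapdh and Pgam2, for Pkm and Ldha, and for Pgk1 and Gpi1. In adipose tissue of vehicle mice Aldoa again led with 2443 ± 16.4 TPM (SD, n = 3), and the order went on with Ldha (931 ± 46.4), Gapdh (601 ± 17.0), Pkm (337 ± 13.2), Gpi1 (239.6 ± 3.78), Pgk1 (184 ± 5.85), Hk2 (33.2 ± 7.24), Pfkm (11.8 ± 0.53), Eno3 (11.5 ± 2.22) and Pgam2 (4.94 ± 2.07). Only Pfkm and Eno3 overlapped there. The 10 genes together took 3.05% to 3.37% of all TPM in muscle of vehicle mice and 0.47% to 0.48% in adipose tissue.

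**Figure D1:**
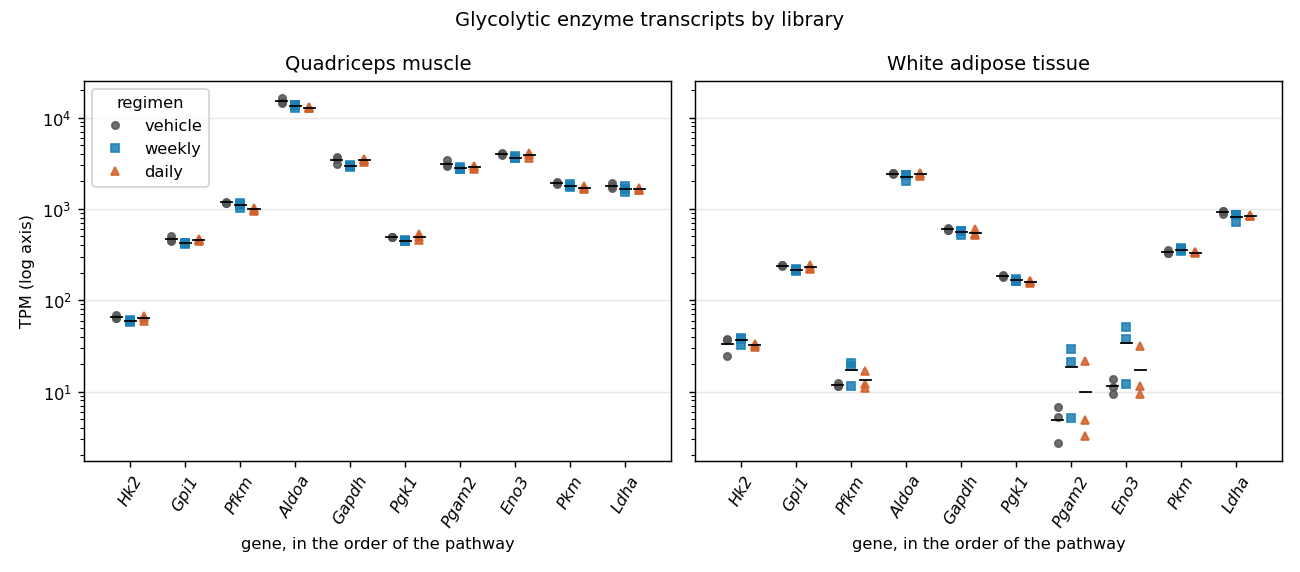
TPM of each glycolytic enzyme gene (log axis) in each library of muscle (left) and adipose tissue (right), by regimen, with short lines at the means of 3 libraries. Pgam2, Eno3 and Pfkm lie at 956 to 4146 TPM in the muscle libraries and at 2.71 to 51.0 TPM in adipose libraries.

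All 10 members were higher in muscle than in adipose tissue of vehicle mice, in a test on the difference within each mouse (limma, 11737 genes, adjusted over all of them, called at an adjusted p under 0.05). The list holds muscle forms such as Pgam2, Eno3 and Pfkm. It was chosen with earlier results of these data known, so this count partly reflects the choice. The background was unequal: 13.1% of all genes were called higher in muscle and 73.9% lower, and the median gene stood at -0.88 on the log2(TPM + 1) scale. Because bulk tissue was sequenced, fewer cells of a type and less RNA per cell cannot be told apart. The muscle isoforms differed most. Pgam2, the muscle phosphoglycerate mutase, stood at 3441, 2953 and 3002 TPM in muscle against 6.80, 2.71 and 5.31 in adipose tissue of the same mice, a log2 difference of 9.11 ± 0.54 (SE, limma adjusted p = 1.27e-07). Eno3, the muscle enolase, stood at 4146, 3863 and 3975 TPM against 13.8, 11.3 and 9.38, a difference of 8.33 ± 0.42 (limma adjusted p = 4.09e-08). Pfkm stood at 1176, 1201 and 1168 TPM against 11.5, 11.4 and 12.4, a difference of 6.54 ± 0.21 (limma adjusted p = 6.12e-09). The tissues did not overlap for any of these 3 genes.

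The remaining members differed less. Aldoa differed by 2.64 ± 0.09 on the log2 scale, Gapdh, the dehydrogenase that makes NADH, by 2.51 ± 0.09, and Pkm by 2.50 ± 0.07. Pgk1, the kinase that makes the first ATP of the pathway, differed by 1.42 ± 0.07. The smallest differences were those of Hk2 (0.98 ± 0.11), the insulin-responsive hexokinase that traps glucose, of Gpi1 (0.97 ± 0.07), the phosphoglucose isomerase, and of Ldha (0.95 ± 0.10). Their limma adjusted p-values ran from 5.90e-09 for Pkm to 1.73e-05 for Hk2. With TMM scaling, which moved the median gene to 0.04, Hk2, Gpi1 and Ldha differed by 2.09, 2.11 and 2.09.

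Of 17 other isoforms and enzymes of the same steps, 9 passed the filter in both tissues, and by limma 2 were called higher in muscle (Tpi1 and Ldhb) and 7 lower (Hk1, Pfkl, Pfkp, Gapdhs, Pgam1, Eno1 and Eno2), a split near that of all genes (13.1% and 73.9%). Regulators had 3 higher and 3 lower of 8 (6 and 1 with TMM scaling), genes of neighbouring steps 8 and 10 of 18 (10 and 7), and transcription factors 7 and 7 of 15 (11 and 3). Pgam2 made up 99.1% ± 0.02 (SD, n = 3) of the phosphoglycerate mutase TPM in muscle of vehicle mice and 2.09% ± 0.88 in adipose tissue, where Pgam1 held the rest. Pfkm made up 98.6% ± 0.21 of phosphofructokinase TPM in muscle and 8.24% ± 0.49 in adipose tissue, and Eno3 made up 98.0% ± 0.14 and 4.44% ± 1.04 of enolase TPM. Hk2 made up 85.9% ± 1.28 of hexokinase TPM in muscle and 57.5% ± 5.67 in adipose tissue. Ldha differed little in its share, with 91.0% ± 1.30 of lactate dehydrogenase TPM in muscle and 92.1% ± 0.19 in adipose tissue.

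Different transcripts of the same member were also used in muscle and fat. Pkm-202, with the M1 exon shown above, held 57.1%, 58.8% and 58.4% of Pkm TPM in muscle of vehicle mice and 20.4%, 19.8% and 20.1% in adipose tissue. Pkm-201, with the M2 exon, held 38.8% ± 0.58 (SD, n = 3) and 74.3% ± 0.53. Aldoa-203, from the distal start, held 43.3% ± 2.33 of Aldoa TPM in muscle and 4.82% ± 0.32 in adipose tissue, while Aldoa-201 held 15.5% ± 0.74 and 83.2% ± 1.00. A further 39.5% ± 1.60 in muscle lay on Aldoa-210, a fragment of 776 bases with an incomplete end. Pfkm-202 held 70.4% ± 1.44 of Pfkm TPM in muscle. In adipose tissue the Pfkm shares rest on low values: Pfkm-202 stood at 0 to 11.2 TPM and its share ran from 0 to 54.5%. The share of Pkm-202 was higher in muscle than in adipose tissue in 9 of 9 mice, as were those of Aldoa-203 and Pfkm-202. These transcripts were chosen after their values were seen, so this is a description with no test.

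**Figure D2:**
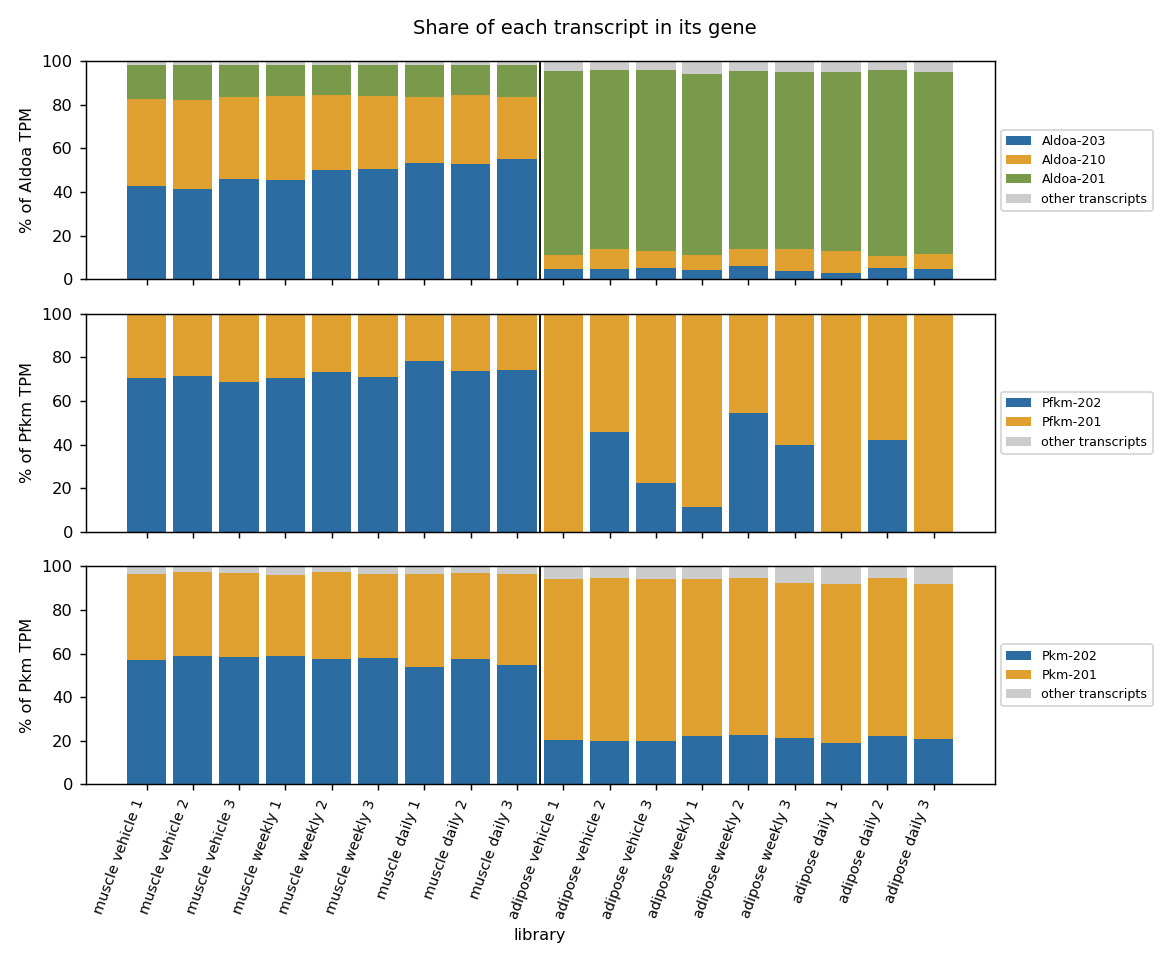
Percent of the TPM of Aldoa, Pfkm and Pkm on each transcript (stacked bars) in the 18 libraries, muscle to the left of the line and adipose tissue to the right. Blue segments (Aldoa-203, Pfkm-202, Pkm-202) are larger in muscle, and Pfkm-202 varies most among adipose libraries.

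For some members the table splits reads in ways that limit what a gene value means. Gapdh-206, a retained-intron fragment of 565 bases from the 3′ part of the gene (chr6:125161853-125162527), held 92.9% of Gapdh TPM in muscle and 93.5% in adipose tissue. Another 123 genes, led by the processed pseudogenes Gm13394 and Gm7336, share at least 100 windows of 31 bases with Gapdh transcripts. Their mean sum was 3961 TPM in muscle against 3261 for Gapdh, and they held 53.2% to 56.6% of the combined value there and 52.8% to 57.5% in adipose tissue. Reads of Gapdh and of these copies cannot be told apart here, so the level of Gapdh is uncertain. Gpi1-207, a fragment of 933 bases, held 60.6% of Gpi1 TPM in muscle, and the copy Gm1840 added 6.8% to 9.5%. Pfkm, Pgam2 and Eno3 shared 0 such windows with other genes. Transcripts of the same gene also share sequence. Of the windows of Aldoa-201, Aldoa-203 and Aldoa-210, 5.74%, 6.08% and 4.83% lay in no other transcript of the gene. For Pfkm-201, Pfkm-202, Pkm-201 and Pkm-202 these were 5.05%, 2.91%, 24.0% and 0.945%. For Hk2-201 and Hk2-202 they were 41.6% and 4.79%. The split of TPM between transcripts is therefore uncertain.

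**Figure D3:**
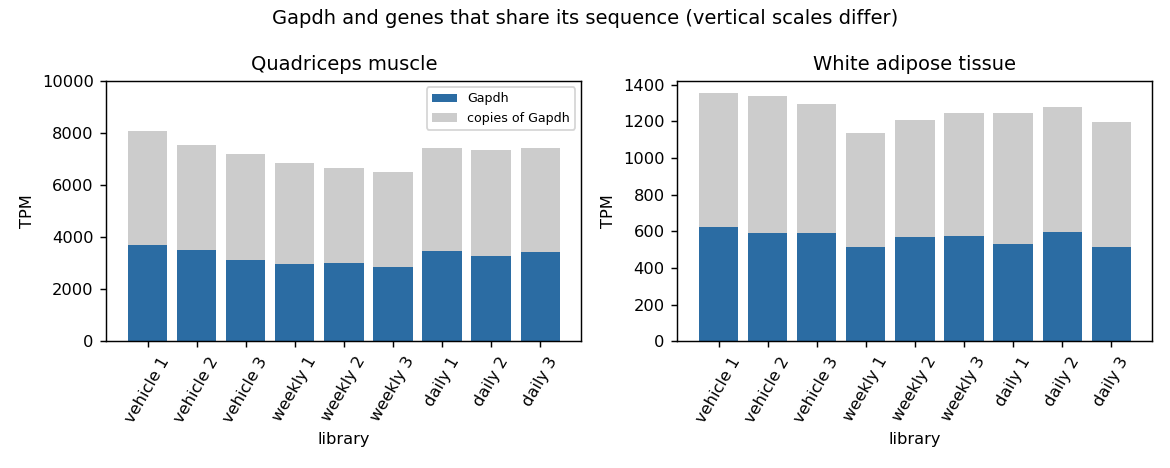
TPM of Gapdh (blue) and of 123 genes that share its sequence (grey, stacked) in each muscle library (left) and adipose library (right), from 0. The copies hold 52.8% to 57.5% of the combined value over all 18 libraries.

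Daily prednisone was followed by lower Pfkm and Aldoa in muscle, while the other 8 members did not pass the test. Of all 12246 genes, 11.8% were called lower and 1.91% higher in this comparison (limma, adjusted p under 0.05), so 2 of 10 members is near the background. Pfkm stood at 1176, 1201 and 1168 TPM in vehicle, 1170, 1035 and 1095 in weekly and 956, 1033 and 979 in daily mice. Every daily library was below every vehicle library. The log2 fold change of Pfkm was -0.26 ± 0.05 (SE, limma adjusted p = 0.0142). Aldoa stood at 16265, 14964 and 14589 TPM in vehicle, 13614, 13571 and 12860 in weekly and 12636, 13209 and 12834 in daily mice. Its vehicle libraries were the 3 highest of the 9. The log2 fold change of Aldoa was -0.24 ± 0.05 (SE, limma adjusted p = 0.0162).

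Both calls depend on scaling and on single libraries. Quantile normalization gave -0.58 for Aldoa, which passed, and -0.14 for Pfkm, which did not (limma adjusted p = 0.170). With TMM scaling the values were -0.15 for Pfkm and -0.14 for Aldoa (limma adjusted p = 0.147 and 0.208), and without the third library of each group, or without muscle daily replicate 3 alone, neither passed (without that replicate limma adjusted p = 0.0662 for Pfkm and 0.0732 for Aldoa). Markers of other cells differed in the same libraries: summed macrophage markers (17 genes) were at 438 to 686 TPM in daily against 274 to 402 in vehicle muscle, with 6 of the 17 above every vehicle library, against 6.02% of all genes. Summed markers of regenerating fibres (6 genes) were at 96.4 to 123 against 49.3 to 53.4, with 5 of 6 not overlapping. Summed slow fibre markers (8 genes) were at 92.9 to 138 against 43.9 to 50.4, with 3 of 8 not overlapping. This sum was at 117 to 192 TPM in adipose tissue, so it does not measure slow fibres alone. Among the other lists 3 of 9 progenitor, 2 of 18 myofibre and 1 of 5 mesothelial markers were above every vehicle library. Below every vehicle library were 5 of 18 myofibre, 3 of 8 endothelial, 2 of 14 adipocyte and 2 of 5 erythroid markers, against 27.8% of all genes. No macrophage, slow fibre or regeneration marker was at 0 in any muscle library. Their part in the result was not tested.

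As the table splits its TPM, the fall of Aldoa lay on 2 of its 3 main transcripts, which hold little sequence of their own. In a fit over transcripts, added after the values were seen, Aldoa-210 changed by -0.64 ± 0.09 (limma adjusted p = 0.00962) and Aldoa-201 by -0.35 ± 0.06 (limma adjusted p = 0.0200). Of all transcripts, 4.71% were called lower and 0.933% higher. Aldoa-203 stood at 6924, 6210 and 6706 TPM in vehicle and 6755, 6995 and 7048 in daily mice, and its change of 0.07 ± 0.05 did not pass (limma adjusted p = 0.505). Its share of Aldoa was 41.5% to 46.0% in vehicle libraries and 53.0% to 54.9% in daily ones, without overlap, at p = 0.1 in an exact two-sided permutation test, the smallest p that 3 against 3 allows (0.2 after adjustment over 18 such tests). Counting complete coding transcripts alone turned the change of Aldoa to 0.05 (limma adjusted p = 0.560), and weighting transcripts by length gave -0.10 (limma adjusted p = 0.384).

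By the same uncertain split, Hk2 and Pfkm also differed between their transcripts. Hk2-201, the full coding transcript of 5513 bases, stood at 44.2, 48.1 and 44.8 TPM in vehicle and 36.0, 38.2 and 34.8 in daily muscle, with no overlap, and changed by -0.32 ± 0.06 (SE, limma adjusted p = 0.0279). Hk2-202, a fragment of 594 bases near the 3′ end, stood at 18.6 to 20.9 TPM in vehicle and 21.5 to 30.8 in daily muscle, and its change of 0.42 ± 0.16 did not pass (limma adjusted p = 0.168). The summed Hk2 value changed by -0.04 ± 0.06, and by -0.24 with complete coding transcripts (limma adjusted p = 0.0266). Pfkm-201 changed by -0.53 ± 0.11 (limma adjusted p = 0.0306) and Pfkm-202 by -0.16 ± 0.05, which did not pass (limma adjusted p = 0.0863). For Pkm, Pkm-202 changed by -0.23 ± 0.06 and Pkm-201 by -0.07 ± 0.04, and neither passed (limma adjusted p = 0.0827 and 0.313).

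The remaining members gave small values after daily dosing. Pkm changed by -0.16 ± 0.05 (SE, limma adjusted p = 0.0668), and it passed without the genes of the mitochondrial genome (limma adjusted p = 0.0371) or with a filter at 5 TPM (limma adjusted p = 0.0499). Ldha changed by -0.14 ± 0.06, Pgam2 by -0.13 ± 0.06, and Hk2, Gpi1, Eno3, Gapdh and Pgk1 by -0.05 to 0.01, with limma adjusted p from 0.179 to 0.936 over these 7. The median over the 10 was -0.09, equal to the -0.09 of all genes at this precision. Groups did not overlap, with daily below vehicle, for 4 of 10 members against 27.8% of all genes. Gapdh stood at -0.02, at 0.09 with TMM scaling and at 0.68 (limma adjusted p = 0.00301) with complete coding transcripts alone. The last value leaves out Gapdh-206, which held most of the Gapdh TPM. The complete coding transcripts share 84.1% to 92.1% of their windows with other genes. With its copies added Gapdh stood at 7593 ± 445 TPM (SD, n = 3) in vehicle and 7402 ± 37.2 in daily mice.

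Weekly prednisone gave 0 of 10 members past the adjusted threshold in muscle (limma), where 0.0490% of all genes were called. Of the 10, 7 had an unadjusted p under 0.05, against 15.4% of all genes. All 10 log2 fold changes were below 0, from -0.22 ± 0.06 for Gapdh to -0.10 ± 0.05 for Pkm, with limma adjusted p from 0.174 to 0.390 and a median of -0.14 against -0.07 for all genes. Under quantile normalization Pkm stood at 0.01, and with complete coding transcripts alone Gapdh stood at 0.19. Gapdh stood at 3698, 3494 and 3117 TPM in vehicle and 2973, 3026 and 2862 in weekly mice, which did not overlap. With its copies added it stood at 7593 ± 445 TPM (SD, n = 3) in vehicle, 6671 ± 177 in weekly and 7402 ± 37.2 in daily mice. The groups did not overlap, with weekly below vehicle, for 7 of the 10 members, against 19.3% of all genes. The weekly and daily comparisons share the 3 vehicle libraries, so their values are not independent. Summed myofibre markers were at 140803 to 147510 TPM in weekly against 146816 to 162358 in vehicle muscle. Of these 18 markers 8 did not overlap, all lower, against 19.3% of all genes. Also below every vehicle library were 3 of 8 slow fibre, 4 of 14 adipocyte, 2 of 6 regeneration, 2 of 17 macrophage and 1 of 5 mesothelial markers. Of the progenitor markers 1 of 9 was above every vehicle library, against 3.75% of all genes. The part of these markers in the weekly values was not tested.

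**Figure D4:**
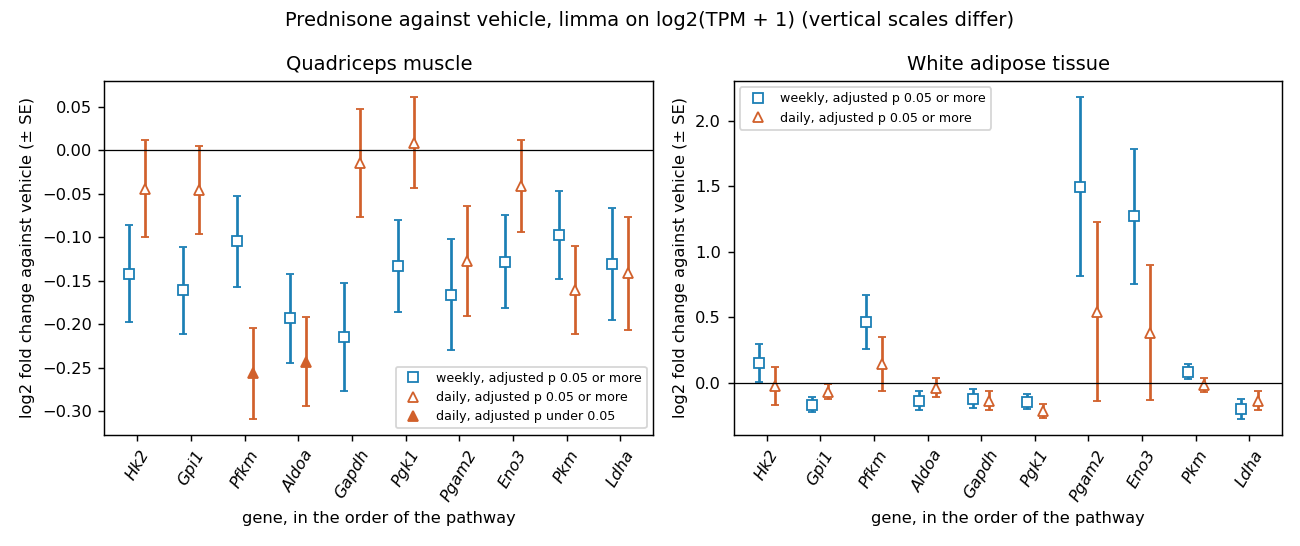
Log2 fold change against vehicle (points) with its SE (bars) for the 10 genes in muscle (left) and adipose tissue (right) after weekly and daily dosing. Filled points, Pfkm and Aldoa after daily dosing in muscle, passed an adjusted p of 0.05, and the vertical scales differ.

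The regimens compared with each other gave 0 of 10 members in muscle (limma, 1.77% of all genes called, 4 of 10 at an unadjusted p under 0.05 against 17.4%). Gapdh was the member with the largest value, 0.20 ± 0.06 higher after daily than after weekly dosing (limma adjusted p = 0.140), and it passed with complete coding transcripts (0.49, limma adjusted p = 0.0233) and with length weighting (0.24, limma adjusted p = 0.0449). Its sequence is shared with the copies described above. Pgk1 (0.14 ± 0.05) and Gpi1 (0.12 ± 0.05) were also higher and Pfkm was lower (-0.15 ± 0.05), with limma adjusted p = 0.205, 0.282 and 0.177. The groups did not overlap for Gapdh, Pgk1 and Gpi1, against 8.58% of all genes higher. They also did not overlap for Pfkm, against 14.7% lower.

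In adipose tissue no member passed after weekly dosing (limma, 0 of 10, against 7.43% of all genes called), with 4 of 10 at an unadjusted p under 0.05 against 30.8%. Here the median of all genes was 0.13, and that of the members -0.02. Pgam2 stood at 6.80, 2.71 and 5.31 TPM in vehicle, 5.14, 29.4 and 20.97 in weekly and 4.92, 21.4 and 3.24 in daily mice. Eno3 stood at 13.8, 11.3 and 9.38 in vehicle, 12.1, 51.0 and 37.9 in weekly and 11.4, 31.3 and 9.44 in daily mice. Pfkm stood at 11.5, 11.4 and 12.4, then 11.5, 20.5 and 19.2, then 10.9, 16.8 and 12.2. The high values of these 3 genes all lay in weekly 2, weekly 3 and daily 2, the libraries with high myofibre markers. The weekly values were 1.498 ± 0.68 for Pgam2, 1.27 ± 0.52 for Eno3 and 0.46 ± 0.21 for Pfkm (SE, limma adjusted p = 0.168, 0.132 and 0.163).

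Ckm was high in the same libraries. Ckm stood at 176, 130 and 109 TPM in the 3 libraries and at 13.2 to 35.0 in the other 6. Pgam2 equalled 16.7%, 16.1% and 19.7% of Ckm in weekly 2, weekly 3 and daily 2, against 16.7% to 18.7% in the muscle libraries. Eno3 equalled 29.0%, 29.0% and 28.7% of Ckm there, against 21.7% to 26.1% in muscle. Pfkm equalled 11.6%, 14.7% and 15.4% of Ckm in the 3 libraries, above the 6.11% to 7.10% of muscle. In the other 6 adipose libraries Pgam2 equalled 19.4% to 37.3% of Ckm, Eno3 39.4% to 87.8% and Pfkm 32.9% to 86.3%. Each of these values was above every muscle library. Without the 3 libraries the weekly values were 0.12 for Pgam2 and 0.085 for Eno3, and the daily values turned to -0.18 for Pgam2, -0.12 for Eno3 and -0.03 for Pfkm, and the weekly value of Pfkm to -0.03, none of them called.

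**Figure D5:**
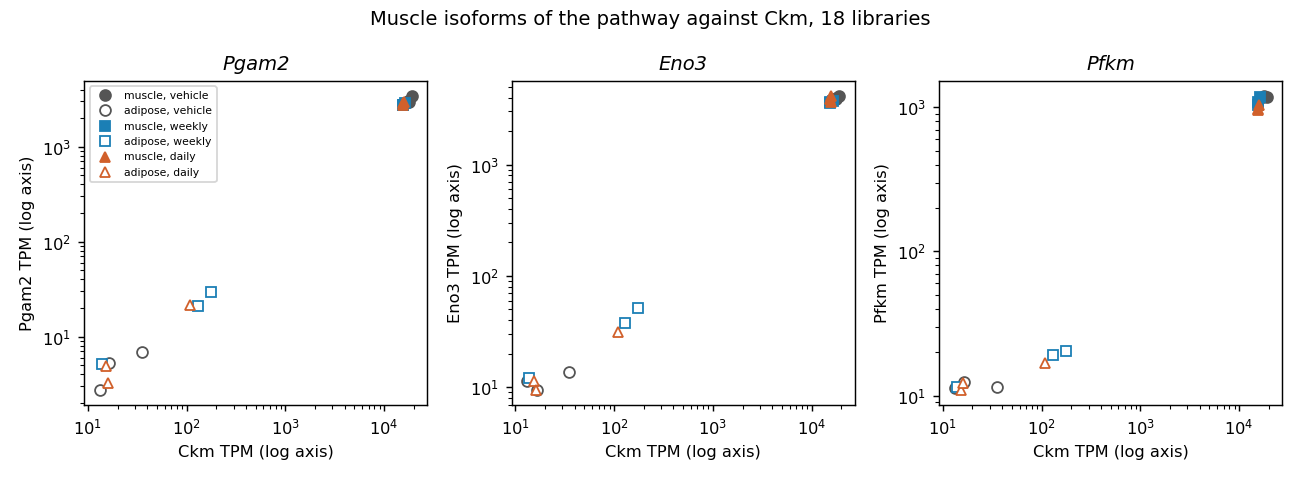
TPM of Pgam2, Eno3 and Pfkm against TPM of Ckm (both axes log) in 18 libraries, filled for muscle and open for adipose tissue. Weekly 2, weekly 3 and daily 2 of adipose tissue lie at 109 to 176 TPM of Ckm, apart from the other 6 adipose libraries at 13.2 to 35.0.

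Several members that most cells express gave lower values in weekly adipose tissue without passing, and 5 of 10 did not overlap with vehicle, all lower, against 7.88% of all genes. Ldha stood at 878, 957 and 960 TPM in vehicle and 725, 857 and 855 in weekly mice, with no overlap, and changed by -0.20 ± 0.07 (SE, limma adjusted p = 0.103). Gpi1 changed by -0.17 ± 0.06, Pgk1 by -0.14 ± 0.05, Aldoa by -0.14 ± 0.07 and Gapdh by -0.12 ± 0.07 (limma adjusted p from 0.0922 to 0.271). Without weekly 2, weekly 3 and daily 2, which leaves weekly 1 alone in its group and assumes that it varies like the rest, Aldoa (-0.29) and Ldha (-0.36) passed (limma adjusted p = 0.0408 and 0.0310). TMM scaling gave -0.32 for Gpi1, -0.30 for Pgk1, -0.29 for Aldoa, -0.27 for Gapdh and -0.35 for Ldha, none past the threshold. Quantile normalization gave -0.11, -0.10, -0.037, -0.023 and -0.042 for the same genes, also without a call. With Ckm as a covariate 5 of 10 passed, all lower (Gpi1, Aldoa, Gapdh, Pgk1 and Ldha, -0.17 to -0.26). Ckm itself was high in weekly 2 and weekly 3 (176 and 130 TPM), so the covariate cannot be fully told apart from the regimen. The 7.43% of all genes called belongs to the fit without it. Hk2 and Pkm stood at 0.15 ± 0.14 and 0.08 ± 0.05, and Pkm at -0.07 with TMM scaling. Summed progenitor markers (9 genes) were higher in weekly than in vehicle adipose tissue, at 2119 to 2467 against 1572 to 1679 TPM. Endothelial markers (8 genes) were at 542 to 706 against 508 to 527, and slow fibre markers (8 genes) at 147 to 192 against 130 to 143. Adipocyte markers (14 genes) were lower, at 42691 to 43443 against 44026 to 45238. Macrophage, mesothelial and erythroid sums overlapped. The part of these markers was not tested.

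Daily dosing gave 0 of 10 members in adipose tissue (limma, 0.00707% of all genes called, 1 of 10 at an unadjusted p under 0.05 against 9.22%). Pgk1 stood at 190, 183 and 179 TPM in vehicle and 161, 161 and 153 in daily mice, and changed by -0.22 ± 0.05 (SE, limma adjusted p = 0.325). Pgk1 and Ldha were the members whose groups did not overlap, both lower, against 7.93% of all genes. The 9 members other than Pgk1 ran from -0.14 for Gapdh to 0.54 for Pgam2, with limma adjusted p from 0.590 to 0.976. The regimens compared with each other also gave 0 of 10 in adipose tissue (limma, 0.311% of all genes called, 0 of 10 at an unadjusted p under 0.05 against 15.8%).

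The effects were not shown to differ between the tissues. When the muscle value minus the adipose value of every mouse was tested, 0 of 10 members passed for weekly dosing (limma, 2.78% of all genes called, 1 of 10 at an unadjusted p under 0.05 against 28.1%) and 0 of 10 for daily dosing (limma, 0.0511% of all genes called, 0 of 10 at an unadjusted p under 0.05 against 13.8%).

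Other genes of the pathway, from lists drawn up with earlier results of these data known, were counted in the same fits. Among the enzymes and transporters that feed or drain glycolysis, the list median after daily dosing in muscle was -0.20 against -0.09 for all genes. By limma 6 of 18 were lower and 0 higher, against 11.8% and 1.91% of all genes. They were Slc2a4, the insulin-responsive glucose transporter (-0.33 ± 0.06), Slc16a1, a lactate transporter (-0.32 ± 0.08), the mitochondrial pyruvate carriers Mpc1 (-0.18 ± 0.04) and Mpc2 (-0.28 ± 0.06), Gpd2, of the glycerol phosphate shuttle (-0.36 ± 0.05), and Ldhd, which oxidises D-lactate (-0.35 ± 0.05). With TMM scaling 2 of the 6 passed (Gpd2 and Ldhd). Among transcription factors known for glycolytic genes, Epas1, a hypoxia-inducible factor (-0.31 ± 0.06), Esrra (-0.34 ± 0.06), Mef2d (-0.40 ± 0.08) and Mlxip (-0.37 ± 0.09) were lower and Myc was higher (0.57 ± 0.11), and with TMM scaling Epas1, Esrra and Myc passed. Of the regulators 2 of 8 were lower (Pfkfb4 and Bpgm, 0 with TMM scaling) and of the other isoforms 1 of 10, Ldhb (-0.32 ± 0.08, not with TMM scaling). After weekly dosing in muscle 0 genes of these 4 lists passed by limma, with 1 of 10 other isoforms, 0 of 8 regulators, 2 of 18 neighbouring genes and 2 of 16 factors at an unadjusted p under 0.05, against 15.4% of all genes. In muscle daily against weekly Gpd2 (-0.25 ± 0.05) and Ldhd (-0.25 ± 0.05) were lower, 2 of 18 neighbouring genes, and so was Epas1 (-0.39 ± 0.06), 1 of 16 factors, by limma and against 1.77% of all genes. With TMM scaling Ldhd and Epas1 passed, and with quantile normalization Epas1.

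In adipose tissue after weekly dosing Ldhb, the heart form of lactate dehydrogenase, changed by -0.53 ± 0.08 (limma adjusted p = 0.0123) and Tpi1, triose phosphate isomerase, by -0.25 ± 0.06 (limma adjusted p = 0.0477), which made 2 of 11 other isoforms lower and 0 higher, against 1.72% and 5.72% of all genes. Tkt (-0.32 ± 0.07) and Taldo1 (-0.28 ± 0.06), of the pentose branch, were lower among 18 neighbouring genes, and Fbp2 (-0.45 ± 0.11), the muscle fructose bisphosphatase, among 8 regulators. Mef2c (0.71 ± 0.14) and Mlxip (0.54 ± 0.13) were higher among 15 factors. All 7 also passed with TMM scaling, and Ldhb, Tkt, Fbp2 and Mef2c passed with quantile normalization, while Tpi1, Taldo1 and Mlxip did not. After daily dosing in adipose tissue 0 genes of the 4 lists passed by limma, with 4 of 11 other isoforms, 1 of 8 regulators, 4 of 18 neighbouring genes and 1 of 15 factors at an unadjusted p under 0.05, against 9.22% of all genes. The weekly change differed between the tissues for Ldhb (0.56 ± 0.11, muscle minus adipose tissue), Slc2a3 (-0.65 ± 0.12), Mlxip (-0.72 ± 0.15) and Mef2c (-0.83 ± 0.16) by limma. They were 1 of 9 other isoforms, 1 of 18 neighbouring genes and 2 of 15 factors, with 0 of 8 regulators, against 2.78% of all genes. None of them passed with TMM scaling or quantile normalization.

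Genes whose pattern over the 9 libraries was most like the mean of the 10 members were Alg3 (r = 0.98), Ky, Arl2, Dap3 and Lyrm9 in muscle and Myoz1 (r = 0.99), Tcap, Pvalb, Tnni2 and Mb in adipose tissue. These are descriptions over 9 libraries that share scaling and tissue composition. All 5 named in adipose tissue are genes of muscle fibres. In adipose tissue Pfkm, Pgam2 and Eno3 followed the mean of the other 9 members at r = 0.91 to 0.95, and the remaining 7 members at r = -0.061 to 0.39.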

How the data were processed

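RNA from the quadriceps and the white fat of 9 mice was sequenced as stranded mRNA libraries, per the labels' protocols. The authors deposited TPM for 105129 Ensembl transcripts in 18 libraries. The submitters' processing notes name Trimmomatic, HISAT2, kallisto and mm10, and their versions and roles are not given in the sources used here. Transcript IDs were matched to GENCODE M21 (98.58%), and TPM were summed per symbol to 33641 genes. Because TPM keeps no read counts, fragments and copies that share sequence can hold TPM of a gene.

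Genes that reached 1 TPM in 3 or more libraries of the tissue (12246 in muscle, 14150 in adipose tissue) were tested as log2(TPM + 1) with limma 3.58.1 in R 4.3.3, with a mean-variance trend and the 3 groups of a tissue in 1 fit. Fold changes are on that scale and understate the change of low genes. The tissues were compared on the difference within each mouse. P-values were adjusted by Benjamini-Hochberg over all genes, with a threshold of 0.05. The labels call the 3 libraries of a group separate samples, and p-values measure the spread between them. The script was tested on simulated data. The 10 members and all lists were chosen with earlier results of these data known. All members were described, and from the other lists genes that passed the test in a comparison of regimens were named, except that 1 result of the transcription factor list is not reported here. Between the tissues these lists are mostly given as counts. Single transcripts, complete coding transcripts, values weighted by length and sums with sequence copies were added after the values were seen. Alternatives for scaling, filter, pseudocount, mitochondrial genes, replicate number and left-out libraries were also run. The design text names 2 daily adipose samples, while the labels and the table hold 3, and all 3 were used.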

Additional observations from a re-analysis of the deposited data

How the results depend on the processing

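The 10 calls between the tissues in vehicle mice passed under every alternative run. Of the other counts of members called, 3 moved. For muscle daily against vehicle the count of 2 became 0 with TMM scaling, 1 with quantile normalization, 1 with no filter, 0 with the third libraries left out, and 3 without genes of the mitochondrial genome or with a filter at 5 TPM (Pkm joined), and ran from 0 to 2 with 1 library left out (0 without muscle daily replicate 3). For muscle daily against weekly the count of 0 became 1 with complete coding transcripts alone and 1 with values weighted by length. For adipose weekly against vehicle the count of 0 became 2 without adipose weekly 2, weekly 3 and daily 2, 5 with Ckm as a covariate and 2 with values weighted by length (Pgk1 and Ldha). With complete coding transcripts alone the count in muscle daily against vehicle stayed at 2 but named other genes (Hk2 and Gapdh), and with values weighted by length it named Hk2 and Pfkm. The cause of these changes was not tested. Same-numbered libraries of a tissue did not deviate together (correlation of residuals -0.12 to 0.11 in muscle, -0.063 to 0.19 in adipose tissue). Within a tissue the numbers were therefore not taken to pair libraries of different regimens. Between the tissues, libraries of the same regimen and number were taken as the same mouse. With the replicate number as a block the count of members called remained 2 in muscle daily against vehicle and 0 in the other comparisons of regimens.

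Of 1980 recomputed values of single members, 114 changed sign, and for 112 of these neither value passed the test. The exceptions were Aldoa and Gapdh in muscle daily against vehicle with complete coding transcripts alone. With Ckm as a covariate in adipose daily against weekly Gapdh was 0.046. With TMM scaling in muscle daily against vehicle Hk2 was 0.057, Gpi1 0.057, Gapdh 0.088 and Eno3 0.062 and in muscle daily against weekly Ldha was 0.016. Also, in adipose weekly against vehicle Pkm was -0.069 and in adipose daily against weekly Gapdh was 0.13, Pgk1 0.074 and Pkm 0.046. Further, in the tissue difference after weekly dosing Aldoa was 0.18, Gapdh 0.14 and Pkm 0.051 and in the tissue difference after daily dosing Hk2 was 0.080 and Ldha 0.095. With complete coding transcripts alone in muscle weekly against vehicle Gapdh was 0.19 and in muscle daily against vehicle Aldoa was 0.053, Gapdh 0.68 and Eno3 0.045. Also, in muscle daily against weekly Hk2 was -0.14, Aldoa 0.11 and Ldha 0.034 and in adipose daily against vehicle Hk2 was 0.10 and Gapdh 0.058. Further, in adipose daily against weekly Gapdh was 0.13 and in the tissue difference after weekly dosing Gpi1 was -0.078, Aldoa 0.089 and Gapdh 0.27. There, in the tissue difference after daily dosing Gpi1 was -0.036, Aldoa 0.086 and Ldha 0.093. With members summed with their copies in muscle daily against vehicle Pgk1 was -0.013 and in adipose daily against weekly Gapdh was 0.054. Also, in the tissue difference after weekly dosing Gpi1 was -0.0029 and Pgk1 -0.013. With quantile normalization in muscle weekly against vehicle Pkm was 0.0059 and in muscle daily against vehicle Hk2 was 0.098 and Gpi1 0.025. Also, in muscle daily against weekly Pgam2 was -0.0041 and in adipose daily against vehicle Gpi1 was 0.021, Aldoa 0.072 and Pkm 0.073. Further, in the tissue difference after weekly dosing Ldha was -0.021 and in the tissue difference after daily dosing Hk2 was 0.11. With values weighted by length in muscle daily against vehicle Gapdh was 0.10 and Eno3 0.029 and in muscle daily against weekly Hk2 was -0.11, Aldoa 0.021 and Ldha 0.019. Also, in adipose daily against vehicle Hk2 was 0.091 and in adipose daily against weekly Gapdh was 0.055. Further, in the tissue difference after weekly dosing Gpi1 was -0.011, Aldoa 0.087 and Gapdh 0.028 and in the tissue difference after daily dosing Gpi1 was -0.0030 and Ldha 0.067. Without adipose weekly 2, weekly 3 and daily 2 in adipose weekly against vehicle Pfkm was -0.030 and in adipose daily against vehicle Pfkm was -0.028, Pgam2 -0.18 and Eno3 -0.12. Also, in adipose daily against weekly Pfkm was 0.0027 and Gapdh 0.014 and in the tissue difference after weekly dosing Pfkm was 0.016, Aldoa 0.13 and Gapdh 0.013. Further, in the tissue difference after daily dosing Hk2 was 0.044, Pgam2 0.024 and Eno3 0.034. Without genes of the mitochondrial genome in muscle daily against vehicle Pgk1 was -0.022 and in muscle daily against weekly Pgam2 was -0.0097. Also, in adipose daily against vehicle Hk2 was 0.026, Aldoa 0.016 and Pkm 0.037 and in adipose daily against weekly Gapdh was 0.011. Further, in the tissue difference after weekly dosing Gpi1 was -0.0015 and in the tissue difference after daily dosing Gpi1 was -0.062. Leaving out the third libraries, in adipose daily against vehicle Hk2 was 0.077 and in adipose daily against weekly Gapdh was 0.054. Also, in the tissue difference after weekly dosing Gpi1 was -0.0083 and in the tissue difference after daily dosing Gpi1 was -0.0050.

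With 1 library or mouse left out, in muscle daily against vehicle Gpi1 ran from -0.078 to 0.0074, Gapdh from -0.084 to 0.039, Pgk1 from -0.044 to 0.059 and Eno3 from -0.085 to 0.0051. Again, in muscle daily against weekly Ldha ran from -0.063 to 0.040. Likewise, in adipose weekly against vehicle Hk2 ran from -0.041 to 0.25. Again, in adipose daily against vehicle Hk2 ran from -0.22 to 0.076, Pfkm from -0.028 to 0.26, Pgam2 from -0.18 to 1.02, Eno3 from -0.12 to 0.70 and Pkm from -0.039 to 0.015. Likewise, in adipose daily against weekly Gapdh ran from -0.084 to 0.027 and Ldha from -0.015 to 0.11. Again, in the tissue difference after weekly dosing Gpi1 ran from -0.035 to 0.055, Aldoa from -0.15 to 0.0098, Pgk1 from -0.015 to 0.044 and Ldha from -0.061 to 0.16. Likewise, in the tissue difference after daily dosing Hk2 ran from -0.14 to 0.15, Gpi1 from -0.019 to 0.071, Pgam2 from -1.16 to 0.024, Eno3 from -0.74 to 0.034 and Ldha from -0.071 to 0.089. Depth is unknown in TPM, so the precision rests on the spread between 3 mice in each group.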
